A study of Mus musculus with 76 samples.

Results

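Npy, the gene for the precursor of neuropeptide Y, was followed across single tdTomato-positive interneurons of the newborn mouse hippocampus. It is 1 of the 35825 gene rows of the deposited tables, and it was chosen by its Npy counts in these same libraries, which differed between the genotypes. Its levels are therefore given as a description, without a test. The cells were patched in the pyramidal layer of dorsal CA1 at postnatal day 4, each library holding the aspirated contents of 1 neuron (Patch-seq, prepared with Nextera XT). The mice were Mut (GPHN S268/270A, gephyrin with serine-to-alanine changes) or WT (GPHN WT). Both genotypes carried Nkx2.1-Cre and the Ai14 tdTomato reporter, so that Cre active in the Nkx2.1 lineage marks descendants of the medial ganglionic eminence (MGE). Of 76 labelled cells, 67 passed the authors' quality filter and 62 of these carry no contamination mark. They are 19 Mut female, 9 WT female, 15 Mut male and 19 WT male cells. The cells left out were not even between the genotypes. The filter removed 4 Mut female, 4 Mut male and 1 WT male cells, while the contamination mark was given to 1 WT female and 4 WT male cells. Strain, animal, litter and slice are not given in the labels, so cells could not be assigned to mice. Cells were therefore not treated as replicates of a genotype, and each genotype and sex is 1 group of cells. The number of a cell is its place among the labelled cells of its group.

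Neuropeptide Y is a peptide transmitter cut from a larger precursor in the secretory pathway, stored in dense-core vesicles and released during strong activity. It acts on a family of G-protein-coupled Y receptors and in the hippocampus dampens glutamate release. In the mature hippocampus it marks several interneuron classes, among them neurogliaform and ivy cells and a share of the dendrite-targeting somatostatin cells. Gephyrin, the protein changed in the Mut mice, is the postsynaptic scaffold under clusters of GABA-A and glycine receptors.

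The libraries held 2946456 to 12070780 counts (median 6353179) and 9057 to 13663 genes with a count. The MGE label fitted most cells: Lhx6, a transcription factor required for MGE interneuron fate, reached 10 CPM (counts per 1000000 counts of the library) in 57 of 62 cells, and Gad1, the GABA-synthesizing enzyme, in 58. Cajal-Retzius neurons, another Reln-rich type of this age, left no clear trace, since neither Trp73 nor Lhx5 reached 10 CPM in any cell. A limit of 10 CPM is used throughout for a cell carrying a gene.

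Npy lies on mouse chromosome 6, from 49822710 to 49829507 on the plus strand of GRCm38 (GENCODE M21 annotation). It has 4 exons, at 49822710 to 49822801, 49823598 to 49823785, 49827489 to 49827569 and 49829303 to 49829507, and no other annotated gene overlaps it. The coding sequence is printed because it holds the site at which the processing enzymes described below act. It has 294 bases, 97 codons with the start and without the stop, in a transcript of 566 bases. The capitals mark its single Gly-Lys-Arg stretch (3 codons starting at codon 65, bases 193 to 201), where prohormone convertases cut the precursor, with the glycine that becomes the amide at the end of the mature peptide.
Npy coding sequence: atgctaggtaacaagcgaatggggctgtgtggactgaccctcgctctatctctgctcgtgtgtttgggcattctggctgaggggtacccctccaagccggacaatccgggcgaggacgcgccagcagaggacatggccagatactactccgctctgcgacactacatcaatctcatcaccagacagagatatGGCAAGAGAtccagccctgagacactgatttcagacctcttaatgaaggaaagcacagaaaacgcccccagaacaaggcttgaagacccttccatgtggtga

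Npy was carried at 10 CPM or more by 54 of the 62 cells, and its level ranged over more than 3 orders of magnitude. The median cell held 343 CPM, the lowest 1.78 CPM (WT male 4, 11 reads) and the highest 6591 CPM (Mut female 22, 75184 reads). Every cell thus had Npy reads, as it had for 2929 of the 35825 genes. Whether the lowest of these counts stand for expression in the cell could not be told from the counts. Only 13 cells lay between 10 and 100 CPM, 32 lay between 100 and 1000 CPM, and 9 reached 1000 CPM. At the 10 CPM limit the cells formed no gap: Mut female 21 (7.64 CPM) and WT male 14 (8.10 CPM) lay just under it, and Mut male 19 (10.6 CPM) and WT male 12 (12.1 CPM) just over it. The spread did not follow library size. Across the 62 cells, which may share animals that are not named, Spearman's rho between Npy and total counts was -0.01, and between Npy and the number of genes detected it was -0.08.

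In Mut females Npy had a lowest level of 3.02, a median of 534 and a highest level of 6591 CPM. In WT females these levels were 5.77, 384 and 1015 CPM. In Mut males they were 2.78, 427 and 5234 CPM, and in WT males 1.78, 222 and 2915 CPM. The medians were thus ordered Mut female, Mut male, WT female, then WT male, but the 4 ranges overlapped almost wholly at the low end, and no neighbouring groups in this order were separated beyond the spread of their cells. The share of carrying cells did not follow the order of the medians. It was 84.2% in Mut females (16 of 19, exact 95% interval 60.4 to 96.6%) and 88.9% in WT females (8 of 9, 51.8 to 99.7%). It was 86.7% in Mut males (13 of 15, 59.5 to 98.3%) and 89.5% in WT males (17 of 19, 66.9 to 98.7%). These intervals, and those below, cover counting error only, since PCR copies of a molecule, like cells from a shared animal, do not vary independently.

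The highest cells were more often Mut, though not separated from WT. A level of 1000 CPM was met by 4 of 19 Mut female cells and 1 of 9 WT female cells, and by 3 of 15 Mut male and 1 of 19 WT male cells. The 4 Mut female cells were numbers 22, 15, 13 and 17, with 6591, 4681, 1676 and 1317 CPM. The WT female cell was number 7, with 1015 CPM. The 3 Mut male cells were numbers 8, 7 and 2, with 5234, 3451 and 1057 CPM, and the WT male cell was number 20, with 2915 CPM. WT male 20 lay between the fourth and the sixth of these cells by level, so the WT males overlapped the high Mut cells, while WT female 7 lay below all 7 of them. At 100 CPM the counts were 13 of 19 Mut female and 5 of 9 WT female cells, and 11 of 15 Mut male and 12 of 19 WT male cells. Within a group the coefficient of variation was 1.62 in Mut females and 0.963 in WT females, and 1.63 in Mut males and 1.70 in WT males.

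**Figure D1:**
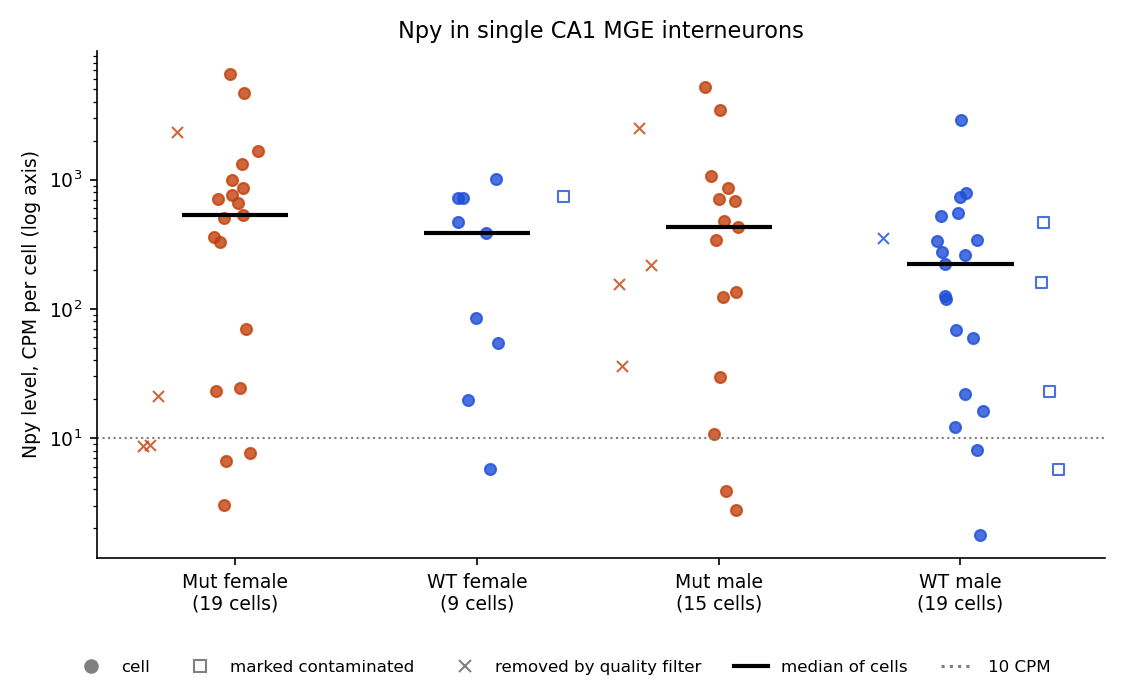
Npy level of every labelled cell in CPM on a log axis, by genotype and sex, with a bar at the median of the 62 cells used and a dotted line at 10 CPM. Crosses are cells removed by the authors' quality filter and open squares cells marked as contaminated, neither of which enters the medians. The medians stand at 534 (Mut female), 384 (WT female), 427 (Mut male) and 222 CPM (WT male), and 7 of the 9 cells at 1000 CPM or more are Mut.

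Summed over cells, Npy was higher in Mut than in WT of each sex. The Mut female sum held 158051 Npy counts, or 1293 CPM after TMM scaling (exact Poisson 95% interval 1287 to 1300), against 21836 counts and 410 CPM (405 to 416) in the WT female sum. The log2 ratio was 1.65, a 3.15-fold difference. The Mut male sum held 94520 counts, or 827 CPM (822 to 832), against 49070 counts and 374 CPM (370 to 377) in the WT male sum, a log2 ratio of 1.14 or 2.21-fold. Few cells made these sums. Mut female 22 alone gave 47.6% of the Mut female counts and WT female 7 gave 34.8% of the WT female counts, while Mut male 8 gave 36.2% of the Mut male counts and WT male 20 gave 45.7% of the WT male counts. When any single cell was left out, the log2 ratio stayed between 0.85 (without Mut female 22) and 2.16 (without WT female 7) in females. In males it stayed between 0.59 (without Mut male 8) and 1.94 (without WT male 20). The ratio of the median cells was smaller, at 0.47 in females and 0.94 in males. Whether more Npy RNA came from more RNA in each neuron or from a different mixture of interneuron types cannot be told apart in a sum.

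The male difference also depended on which cells were summed by Neurod6, a transcription factor of pyramidal neurons that reached 10 CPM in 31 of the 62 cells. Among cells with Neurod6 under 10 CPM, the log2 ratio was 0.88 in females (14 Mut and 5 WT cells) and -1.48 in males (5 Mut and 7 WT cells), so that the male direction turned round. There the 5 Mut male cells had a median of 427 and a highest level of 684 CPM, and the 7 WT male cells a median of 222 and a highest level of 2915 CPM. The highest of these is WT male 20. Without the highest Npy cell of each group, this ratio was 1.41 in females and 0.035 in males. Among cells with Neurod6 at 10 CPM or more, it was 2.45 in females (5 Mut and 4 WT cells) and 2.41 in males (10 Mut and 12 WT cells). In those males the Mut median was 527 and the highest level 5234 CPM, while the WT median was 190 and the highest level 792 CPM. The 5 pyramidal markers together (Neurod6, Neurod2, Slc17a7, Camk2a and Nrn1) summed to a median of 129 CPM in Mut females (range 1.90 to 260) and 175 CPM in WT females (2.70 to 537). They summed to 476 CPM in Mut males (2.51 to 1147) and 320 CPM in WT males (2.87 to 1907). Across all cells, Mut and WT together, rho between Npy and Neurod6 was -0.00. The part of pyramidal RNA in the Npy difference was not tested.

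**Figure D2:**
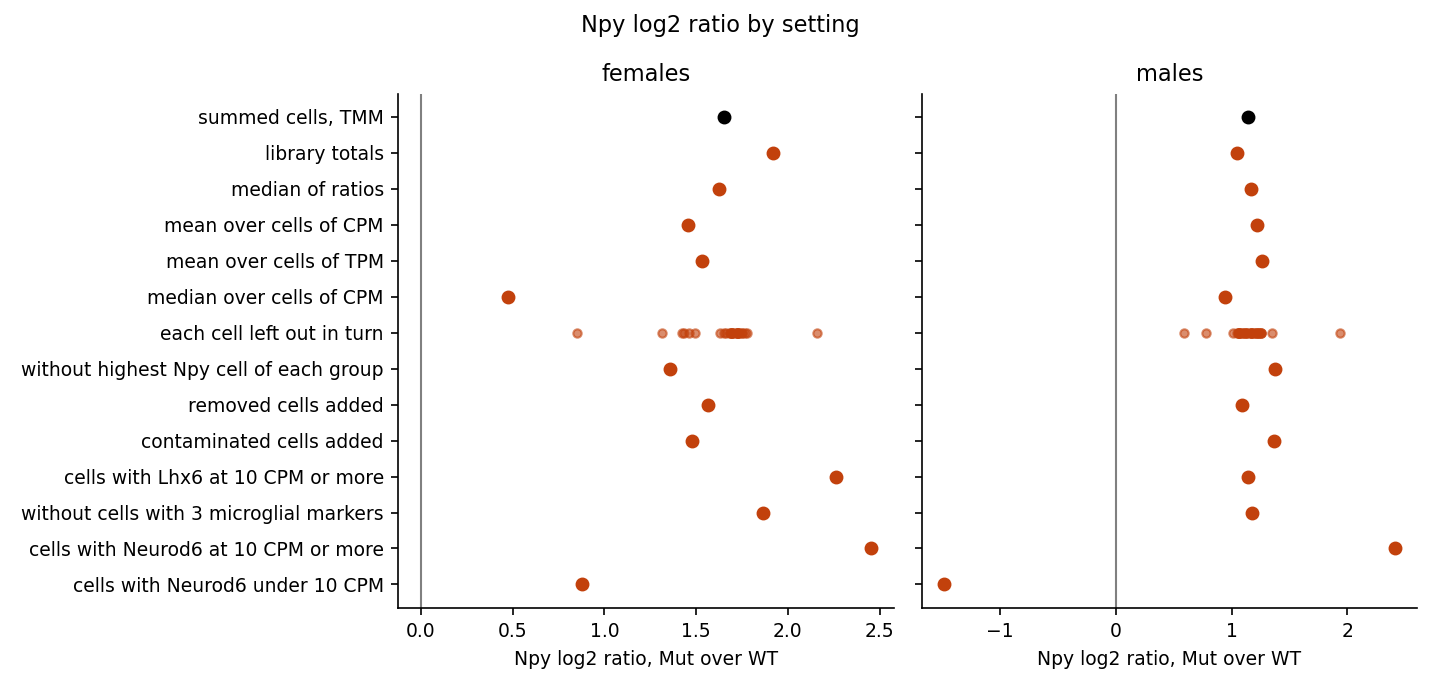
Log2 ratio of Npy, Mut over WT, in females (left) and males (right), for the summed cells with TMM scaling (black) and for the other scalings, weightings and choices of cells named on the vertical axis. Small points leave out 1 cell each. Every plotted value in females is above 0, and in males the sum of cells with Neurod6 under 10 CPM lies at -1.48.

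Compared per length, Npy was among the most abundant transcripts of many cells. By TPM, a length-scaled measure, its median rank among all genes was 99.5 over the 62 cells. By group the median rank was 68 in Mut females and 73 in WT females, and 60 in Mut males and 202 in WT males. Npy stood in the top 100 genes of 32 cells and in the top 10 of 7 cells, 6 Mut and 1 WT. In Mut female 22 it was the gene of highest TPM of all (27732 TPM, 0.659% of the reads).

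Among 14 neuropeptide precursor genes, Npy made up 50.7% of the TPM summed over genes and cells. Cck (cholecystokinin) followed with 19.99%, Sst (somatostatin) with 14.5% and Tac1 (substance P and related tachykinins) with 9.08%. The median cell held 1360 TPM of Npy and 794 TPM of Cck, but only 14.1 TPM of Tac1, 9.76 TPM of Cort (cortistatin), 7.27 TPM of Sst and 1.86 TPM of Pnoc (nociceptin). Sst was thus a transcript of few cells at very high level, up to 30779 TPM in Mut male 7, where Npy was spread over most cells. Npy was the peptide gene of highest TPM in 31 cells, Cck in 20, Tac1 in 6, Sst in 3, and Cort and Tac2 in 1 each. By group, Npy led in 13 of 19 Mut female and 2 of 9 WT female cells, and in 8 of 15 Mut male and 8 of 19 WT male cells. Its median share of a cell's peptide TPM was 54.6% in Mut females and 33.9% in WT females, and 42.1% in Mut males and 32.8% in WT males. Whether pyramidal RNA added to the Cck in these shares was not tested.

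**Figure D3:**
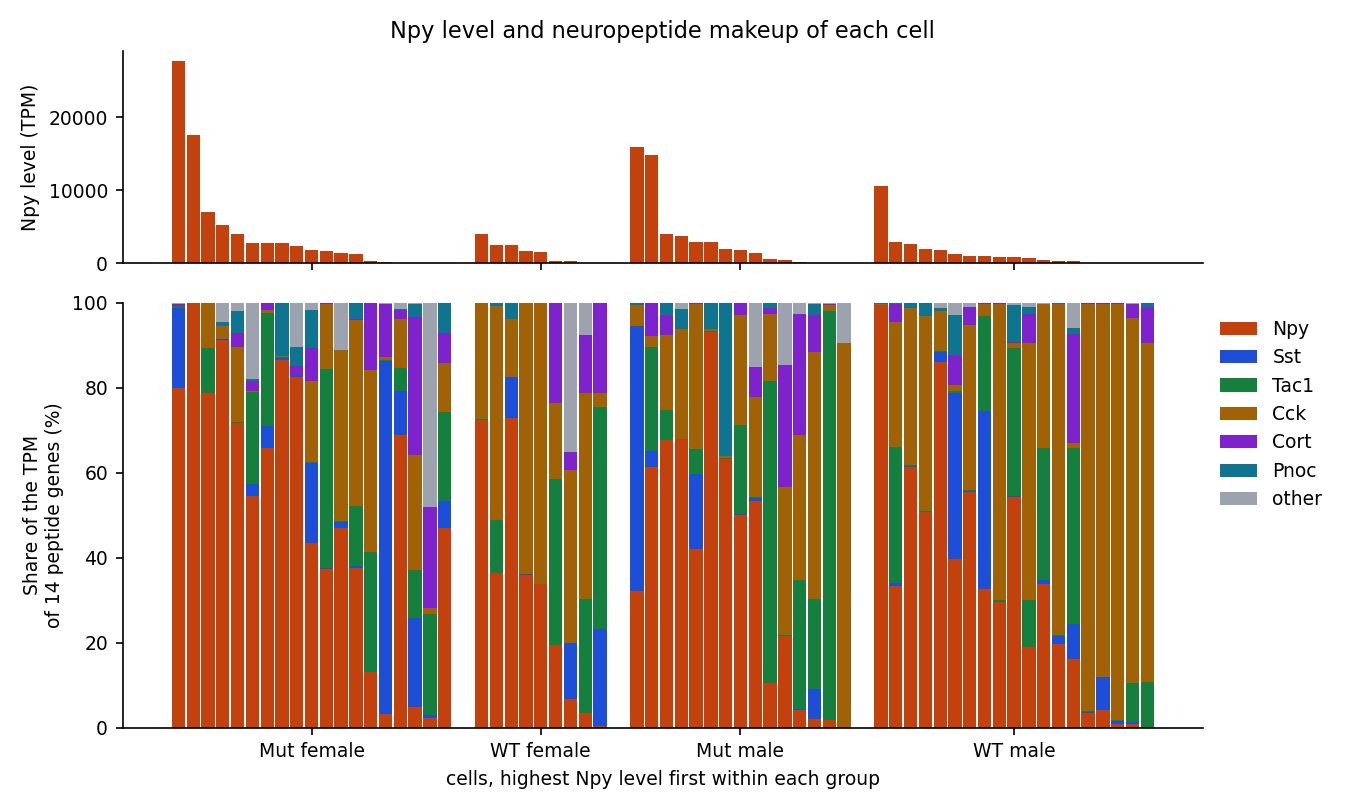
Npy level in TPM (upper bars, linear axis from 0) and the share of each peptide gene in the summed TPM of 14 peptide genes (lower bars, in percent) for the 62 cells, ordered by Npy TPM within each group. In the leftmost cells Npy gives 80.1% (Mut female 22), 72.5% (WT female 7), 32.3% (Mut male 7, with Sst above it) and 99.4% (WT male 20).

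Most cells carried several peptide genes, with or without Npy. The 54 Npy cells carried a median of 3 of the other 13 peptide genes at 10 CPM (range 0 to 6), and 2 carried none. The 8 cells with Npy under 10 CPM carried a median of 3.5 (range 0 to 5), and 1 carried none. Npy met Sst in 19 cells, Tac1 in 24 and both in 9, while 20 Npy cells carried neither. Of the cells with Sst, 19 of 21 also carried Npy. Npy had a median of 343 CPM both in the 21 cells with Sst and in the 41 without, and rho over the cells was 0.04. The median Npy was 178 CPM in 30 cells with Tac1 against 405 CPM in the others, but the levels showed no relation over the cells (rho -0.02). Cort cells had less Npy, with a median of 122 CPM in 29 cells with Cort against 469 CPM in the others (rho -0.28). Within groups the rho with Cort was -0.32 in Mut females and -0.88 in WT females, and 0.06 in Mut males and -0.25 in WT males. Pnoc cells had more Npy, with 695 CPM in 28 cells with Pnoc and 104 CPM in the others (rho 0.37). These and all later rho values describe cells that share depth and unnamed animals, and carry no test.

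The 9 cells of highest Npy had quite different companions. Mut female 22 also had 2287 CPM of Sst, 947 CPM of Reln (the secreted protein reelin) and 1318 CPM of Calb1 (the calcium buffer calbindin). Mut male 8 combined Npy with 4833 CPM of Tac1, 858 CPM of Cort and 464 CPM of Sst, and Mut male 7 with 10062 CPM of Sst. In these 3 cells Npy was part of a mixture of peptides. Mut female 15 and WT male 20 were the opposite, with 99.9% and 99.4% of their peptide TPM from Npy, at 0.784 and 1.17 CPM of Sst. Mut female 15 also had the highest Maf level of the 62 cells (840 CPM), and WT male 20 the highest Lhx6 level (1628 CPM). Mut female 13 added Reln at 1339 CPM and Tac1 at 685 CPM. WT female 7, the highest of the WT females, had Gad1 at 739 CPM but Lhx6 at only 2.67 CPM.

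Among 13 genes that part the Npy-expressing interneuron classes, some went with more Npy and others with less, and the shares of their cells that carried Npy are to be read against the 87.1% of all cells that did. Reln, shared by neurogliaform and many Sst cells, was carried by 22 cells, 20 of them with Npy, and Npy was 521 CPM with it and 332 CPM without it (rho 0.35). Calb1 was carried by 24 cells, 22 with Npy, at 448 CPM with and 130 CPM without it (rho 0.35). Nos1, the nitric oxide synthase of ivy and MGE-derived neurogliaform cells, was carried by 10 cells, 9 with Npy, at 543 CPM with and 338 CPM without it (rho 0.05). Lamp5, a marker of neurogliaform-type cells, was carried by 7 cells, all with Npy, and Ndnf, another such marker, by 13 cells, 12 with Npy. Id2, an inhibitor of basic helix-loop-helix factors, was broad, in 42 cells, with 242 CPM of Npy with it and 415 CPM without it. Npy was also lower with Chrm2, a muscarinic receptor (119 CPM in 7 cells with it and 384 CPM in the others, rho -0.24), with the GABA-A delta subunit Gabrd (119 CPM in 5 cells against 343 CPM), with Cacna2d1 (274 CPM in 17 cells against 360 CPM) and with Grin3a (267 CPM in 28 cells against 372 CPM). Pvalb, the calcium buffer of mature basket cells, was carried by 1 cell, which had 705 CPM of Npy.

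Several genes of MGE identity and GABA synthesis went with higher Npy. Gad1 had the highest rho with Npy of the 3020 genes ranked (0.48). The 4 cells with Gad1 under 10 CPM had a median Npy of 7.58 CPM and none above 16.1 CPM, against 372 CPM in the 58 others. Within groups rho with Gad1 was 0.66 in Mut females and -0.15 in WT females, and 0.36 in Mut males and 0.54 in WT males, so the 9 WT female cells did not share the pattern. Lhx6 gave rho 0.29, with 360 CPM of Npy in 57 cells with it and 12.1 CPM in 5 without it. Maf, a transcription factor of MGE interneuron maturation, gave rho 0.34, with 448 CPM in 48 cells and 22.5 CPM in the others, and Gad2, the second GABA-synthesizing enzyme, gave 0.29. Sox6, a later factor of the same lineage, ran the other way, with rho -0.29 and 122 CPM of Npy in 25 cells with it against 476 CPM in the others. Nkx2-1, the lineage factor behind the Cre, was still carried by 11 cells, 10 with Npy. The reverse reading was also mixed: of the 8 cells with Npy under 10 CPM, 6 carried Lhx6 and 6 carried Gad1.

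**Figure D4:**
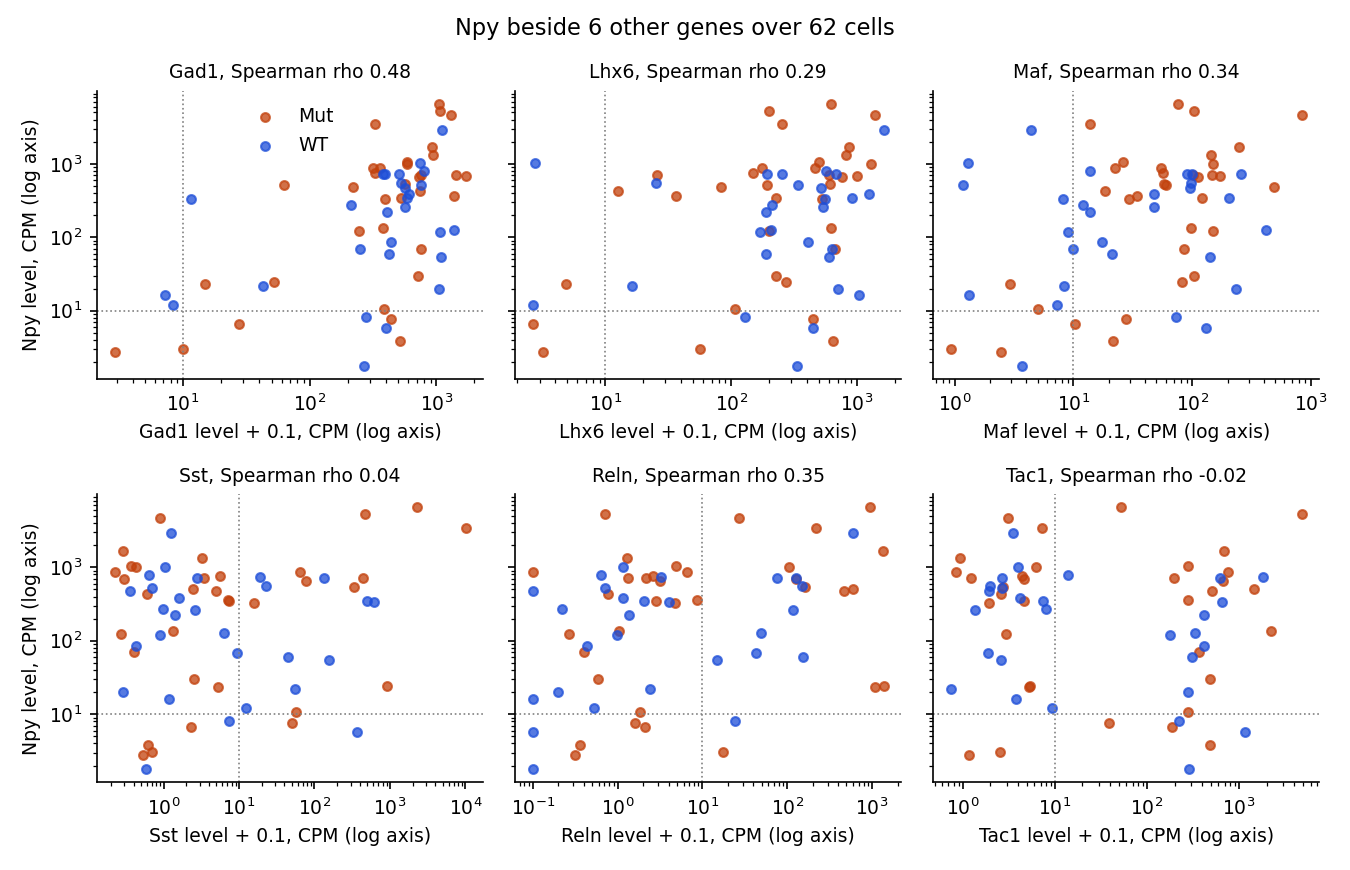
Npy level against the level of 6 other genes in each of the 62 cells, Mut in orange and WT in blue, both axes in CPM on log scales with 0.1 CPM added on the horizontal axis and dotted lines at 10 CPM. Spearman's rho is 0.48 for Gad1, 0.29 for Lhx6, 0.34 for Maf, 0.04 for Sst, 0.35 for Reln and -0.02 for Tac1, and the cells of lowest Gad1 lie at the bottom left.

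Of the rest of the neuropeptide Y system, the ligand family and the receptors were nearly silent in these neurons. Pyy, the gut peptide relative, reached 10 CPM in 1 cell, and Ppy, pancreatic polypeptide, was at 0 in all 62. Npy1r, the Y1 receptor, was carried by 7 cells, 6 of which also carried Npy. Npy2r, the presynaptic Y2 receptor, Npy4r and Npy5r were each carried by 1 cell, and Npy6r was at 0 in all cells. In the sums Npy1r had 7.18 CPM in Mut females against 13.97 CPM in WT females, and 1.73 CPM in Mut males against 7.16 CPM in WT males. A single cell, WT female 7, gave 94.98% of the WT female value, and without it the log2 ratio in females was 2.23 in place of -0.87.

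The enzymes and helpers that turn the precursor into peptide were, by contrast, present in many cells. Cpe, the carboxypeptidase that trims the basic residues left after cleavage, reached 10 CPM in all 62 cells (median 788 TPM, rho with Npy -0.03). Scg5, the chaperone of the convertase PC2, was carried by 56 cells (400 TPM, rho 0.09), and Pcsk1n, an inhibitor of the convertase PC1, by 59 (135 TPM, rho 0.22). Within groups the rho of Pcsk1n was 0.16 in Mut females and 0.55 in WT females, and -0.24 in Mut males and 0.39 in WT males, and that of Scg5 reached 0.47 in Mut males. The convertases themselves were sparser: Pcsk2, which encodes PC2, was carried by 28 cells, 24 with Npy, and Pcsk1, which encodes PC1, by 1 cell, Mut female 22, the cell of highest Npy. Pam, the enzyme that amidates the peptide end, was carried by 30 cells, 25 with Npy. Dpp4, a peptidase that shortens the finished peptide, reached 10 CPM in no cell.

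Of the 9 dense-core vesicle genes, 6 were carried by at least 31 cells, and Cadps, the priming factor of these vesicles, had the highest rho with Npy among them. Cadps reached 10 CPM in 52 cells, 47 with Npy, and Npy stood at a median of 405 CPM in the 52 and 19.7 CPM in the 10 others (rho 0.38). Within groups the rho of Cadps was 0.56 in Mut females and -0.25 in WT females, and 0.59 in Mut males and 0.15 in WT males. The granins and related cargo Chga, Chgb, Scg2, Scg3 and Vgf were carried by 41, 39, 47, 47 and 45 cells, with rho between -0.13 (Chga) and 0.17 (Scg2). Ptprn, Ptprn2 and Cadps2 were carried by 26, 8 and 16 cells.

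**Figure D5:**
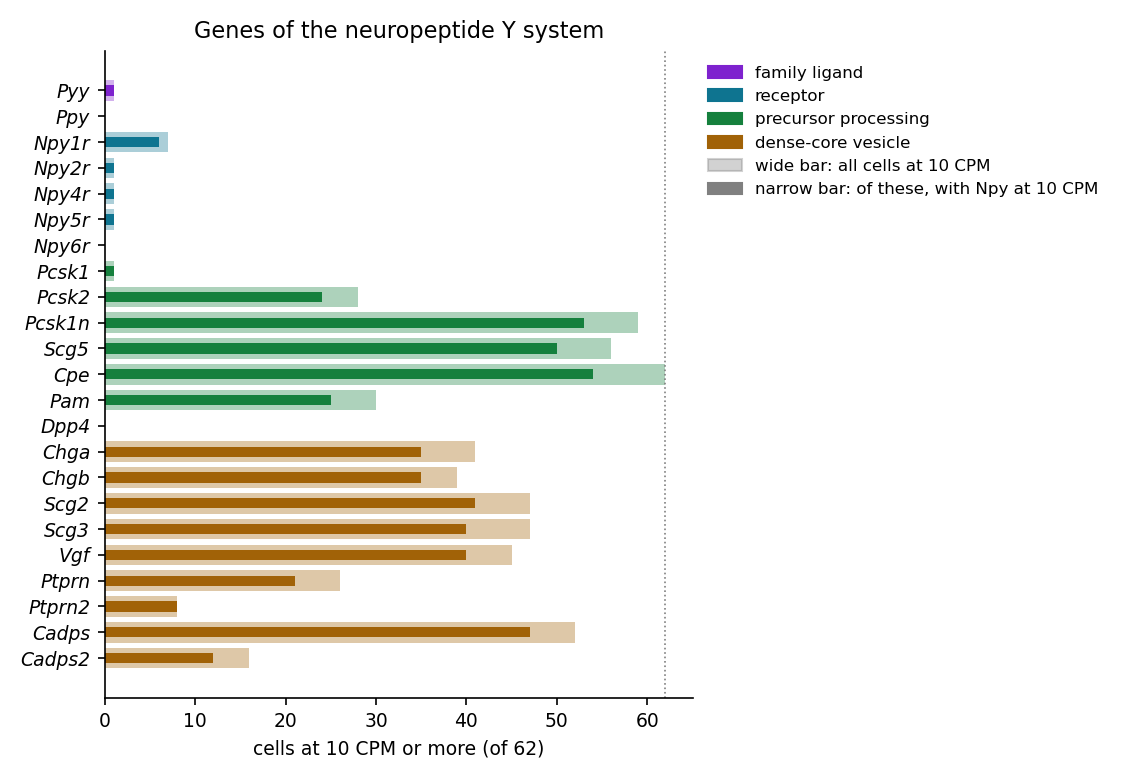
Number of the 62 cells with each gene of the neuropeptide Y system at 10 CPM or more (wide pale bars) and, of these, the number that also carried Npy (narrow dark bars), coloured by role. Receptors reach at most 7 cells, and Cpe, Pcsk1n and Scg5 reach 62, 59 and 56.

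Of the genes that act on Npy transcription or mark neuronal activity, those ranked had small negative rho with Npy. Of the 9 on the list, 4 were carried by at least 31 cells and so ranked. Their rho with Npy ran from -0.22 to -0.11, within the middle 95% of all genes ranked (-0.27 to 0.23, median -0.02). For the summed CPM of all 9, rho with Npy was -0.26. The signs differed between groups: Egr1 gave -0.70 in Mut females and -0.27 in WT females, and 0.11 in Mut males and -0.19 in WT males. Fos, an early gene of activity, was carried by 43 cells, with 334 CPM of Npy with it and 384 CPM without it. Egr1, another early gene, was carried by 41 cells, at 134 CPM with and 476 CPM without it (rho -0.22), and Bdnf, a neurotrophin that raises Npy in cultured neurons, by 9 cells, all with Npy.

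Across the 3020 genes carried by at least 31 cells, the median rho with Npy was -0.02. In 16 genes it was 0.3 or more and in 46 genes -0.3 or less, and 345 genes (11.4%) had 1 sign in all 4 groups. Among those with 1 sign, the 8 highest were Rpl7 (0.40), Kidins220 (0.37), Inpp4a (0.37), Ncdn (0.35), Nxf1 (0.33), Tmem170 (0.32), Ndufb3 (0.31) and Spcs1 (0.30). Rpl7 encodes a ribosomal protein, Kidins220 a scaffold of neurotrophin receptors, Inpp4a a phosphoinositide phosphatase and Spcs1 a subunit of the signal peptidase. The 4 lowest were Ptpn1 (-0.42), a tyrosine phosphatase, Psmb10 (-0.39), an immunoproteasome subunit, Klf7 (-0.38), a transcription factor, and Idh3a (-0.38), a subunit of a citric acid cycle enzyme. Kidins220 had a within-group rho of 0.54 in Mut females and 0.87 in WT females, and of 0.46 in Mut males but 0.01 in WT males. Which genes are named depends on the measure: of these 12, 6 stayed in the list with Pearson's r on log2(CPM + 1), 7 with TPM, 10 without the cell of highest Npy and 5 among cells with Lhx6.

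Among the marker lists of other cell types, the oligodendrocyte-lineage genes had the rho of largest size with Npy. Only 15 of the 62 cells carried any of these genes, so most of the ranks behind this rho compare values near the floor. Summed over the 4 such markers, rho with Npy was -0.40, and Olig1 alone, a transcription factor of that lineage that was carried by 14 cells, gave -0.43. The summed level ranged from 0 to 1830 CPM in Mut females (median 2.38) and from 0.233 to 194 CPM in WT females (median 0.837), and from 0.131 to 87.3 CPM in Mut males (median 0.902) and 0 to 624.8 CPM in WT males (median 1.29). The 8 microglial markers summed to a median of 4.20 CPM in Mut females (0.239 to 5773) and 7.56 CPM in WT females (0.515 to 647). They summed to 9.72 CPM in Mut males (1.18 to 1758) and 9.47 CPM in WT males (2.73 to 995), with rho -0.02 to Npy. The 6 astrocyte markers gave rho -0.17, the 2 endothelial markers 0.09, the 3 haemoglobin genes 0.14 and the 7 markers of caudal-ganglionic-eminence interneurons 0.04. Without the cells in which 3 or more microglial markers reached 10 CPM, the log2 ratio of Npy was 1.86 in females and 1.17 in males. That left 18 Mut female, 8 WT female, 14 Mut male and 16 WT male cells. The part of these cell types in the Npy values was not tested.

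In a fit of genotype over all genes with sex as a term (edgeR quasi-likelihood F-test on the 4 sums, Benjamini-Hochberg adjustment), 0 of 16435 genes passed an adjusted p of 0.05 as higher and 0 as lower in Mut, a background of 0% in each direction. At an unadjusted p under 0.05 there were 273 higher and 302 lower, and DESeq2 called 367 higher and 299 lower. With 1 residual degree of freedom and a coefficient of variation of 0.958 between sums, the edgeR fit recovered 0% of 16-fold changes in simulated data, so its count of 0 says little about these genes. Genes around Npy are therefore described by their ratios. In females 23.1% of the genes tested were 2-fold or more higher and 18.2% lower in Mut, in males 16.7% and 17.4%, and in both sexes 5.11% and 3.77%. Of the 91 tested genes on the lists described here, 11 were that much higher and 4 that much lower in Mut of both sexes. The 11 were Chgb, Sst, Pnoc, Penk, Pdyn, Sox6, Ndnf, Prox1, Creb1, P2ry12 and Gja1, and the 4 were Bdnf, Rest, Fcer1g and Sox9. Several rested on 1 cell in a group. In Mut females and Mut males 1 cell each gave 99.2% and 98.0% of P2ry12, 93.0% and 96.0% of Gja1, and 57.8% and 85.1% of Prox1. In WT females and WT males 1 cell each gave 97.9% and 95.3% of Rest, 95.5% and 80.7% of Fcer1g, and 97.2% and 40.6% of Sox9. For Creb1 the Mut shares were 73.4% and 32.6%, for Ndnf 45.4% and 34.7%, and for Bdnf the WT shares were 56.3% and 48.0%. With library totals in place of TMM, all log2 ratios shift by 0.26 in females and -0.10 in males.

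The other neuropeptides were the list with most members past 2-fold in both sexes. Of 13 such genes, 10 were tested, of which 5 were 2-fold or more higher and 3 lower in Mut females, 8 higher and 0 lower in Mut males, and 4 higher in both sexes, with a median log2 ratio of 0.55 in females and 1.81 in males, beside 0.02 and -0.02 over all genes tested. Sst had 287 CPM in Mut females against 73.8 CPM in WT females (log2 ratio 1.94), and 722 CPM in Mut males against 42.9 CPM in WT males (4.04). Both ratios rested on 1 cell each: Mut female 22 gave 74.4% of the Mut female counts and Mut male 7 gave 93.0% of the Mut male counts, and without these cells the log2 ratios were 0.12 and 0.34. Pnoc had 81.4 CPM in Mut females against 23.9 CPM in WT females, and 195 CPM in Mut males against 43.1 CPM in WT males (log2 ratios 1.73 and 2.16). WT female 5 gave 62.04% of the WT female value of Pnoc and Mut male 12 gave 59.9% of the Mut male value. Without WT female 5 the female log2 ratio was 2.88, and without the highest Mut cell the ratios were 1.29 in females and 1.01 in males. The enkephalin precursor Penk had log2 ratios of 3.92 and 1.68, but 1 cell gave 99.2% of it in Mut males, and without that cell the male ratio was -2.01. The dynorphin precursor Pdyn had 2.02 CPM in Mut females, all from 1 cell, against 0 in WT females, and its log2 ratio of 3.36 in males became -1.25 without the cell that gave 99.5% of it in Mut males. Cck, second by summed TPM among the peptide genes, went the other way. It had 121 CPM in Mut females against 634 CPM in WT females (-2.38), and 350 CPM in Mut males against 499 CPM in WT males (-0.51). WT male 12 and Mut male 3, with 1785 and 1694 CPM of Cck, also held 833 and 349 CPM of the pyramidal Neurod6. WT male 1 and WT female 7, with 639 and 530 CPM of Cck, held only 0.868 and 1.07 CPM of it. The part of pyramidal RNA in the Cck values was not tested.

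Among the 6 tested processing genes, 0 were past 2-fold in both sexes, and the median log2 ratios were -0.05 in females and 0.26 in males. Past 2-fold in 1 sex were Pcsk2 (-4.03 in females, where 1 cell gave 86.1% of the WT value), Pam (1.74 in males) and Scg5 (1.02 in males). Cpe stood at 1476 CPM in Mut females against 1153 CPM in WT females, and at 1374 CPM in Mut males against 1388 CPM in WT males. Of the 9 vesicle genes, Chgb alone was past 2-fold in both sexes, with 240 CPM in Mut females against 76.6 CPM in WT females (log2 ratio 1.63) and 301 CPM in Mut males against 107 CPM in WT males (1.48). In females 3 of the 9 were 2-fold or more higher, Ptprn at 1.75 and Cadps2 at 1.71 besides Chgb, and in males Ptprn2 was lower at -3.77. For Chgb the unadjusted p in the edgeR fit was 0.02 and the adjusted p 1. Gad1, the gene of highest rho with Npy, stood at 633 CPM in Mut females against 820 CPM in WT females (-0.37), and at 556 CPM in Mut males against 464 CPM in WT males (0.26). Lhx6 had 542 CPM in Mut females against 651 CPM in WT females and 295 CPM in Mut males against 399 CPM in WT males. Sox6, whose cells had less Npy, was higher in Mut, with 86.9 CPM in Mut females against 19.9 CPM in WT females (2.07, or 1.16 without Mut female 6) and 65.1 CPM in Mut males against 13.8 CPM in WT males (2.16). Reln and Calb1, which went with Npy across cells, had log2 ratios that differed in sign between the sexes: 3.48 and 2.54 in females, and -0.55 and -0.38 in males, a difference that was not tested. The male values rested on few cells: without WT male 20 the ratio of Reln was 0.62, and without WT male 10 that of Calb1 was 0.10.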

How the data were processed

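Single neurons were collected by patch pipette, each sequenced as 1 library, per the labels' protocols. The deposited tables hold expected counts per gene symbol, estimated by the authors with kallisto on GRCm38 per the submitters' processing notes, with the version not given in the sources used here. They also hold TPM made by the authors, which sum to 1000000 in each cell. How cells failed the quality filter or earned a contamination mark is not given in the sources used here. The tables have 44 columns after the quality filter, and 52 before it, that match no labelled cell, and these were not used here. Of 35825 gene symbols, 35338 matched GENCODE M21.

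CPM per cell was computed as counts per 1000000 of that cell's total. For each genotype and sex the counts of the used cells were summed and rounded. Sums were scaled with TMM, and log2 ratios (Mut over WT) used a pseudocount of 1 CPM. Genotype was fitted with sex as a covariate over genes that passed filterByExpr (minimum count 10) with edgeR 4.0.16 (quasi-likelihood F-test, R 4.3.3), and DESeq2 1.42.0 was the other tool. The edgeR fit was tested on simulated data, where it recovered 0% of 4-fold and 16-fold changes at a coefficient of variation of 0.958 and 100% of both at 0.1, with 8 false calls. Intervals are exact, at 95%. Correlations over cells are Spearman's, computed with pandas 2.3.3, and the binomial intervals came from scipy 1.17.1. Genes like Npy were named as the 8 of highest and 4 of lowest rho among genes at 10 CPM in at least 31 cells with 1 sign in all 4 groups, Gm and Rik names passed over. Npy, the gene lists and these rules were chosen with earlier results of these data known. The coding sequence is that of GENCODE M21 on GRCm38. No replicate numbers pair the cells. The alternatives were other scalings, weights, units, filters and choices of cells.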

Additional observations from a re-analysis of the deposited data

Results flagged for a closer look

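Of the cells outside the comparisons, Mut female 9, which the authors' quality filter removed, had 2340 CPM of Npy (4920 counts), above the 1015 CPM of the highest WT female cell used. It also had 4822 CPM of Tac1, with 6.53 CPM of Lhx6 and 18.6 CPM of Gad1. It stood far above the 3 other removed Mut female cells, the gap being 0.995 of the range (Dixon's critical value for 4 cells is 0.829). Likewise Mut male 11, with 2508 CPM of Npy (2466 counts) and 1524 CPM of Sst, stood far above the 3 other removed Mut male cells (0.927 of the range), though below the highest WT male cell used (2915 CPM). Dixon's criterion supposes normally distributed values, which the skewed CPM of single cells are not. These gaps are therefore a description, with no rate of flags by chance. The criterion flagged no cell among the 9 WT female cells used or the 4 contaminated WT male cells, and it was not applied to the larger groups.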

How the results depend on the processing

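In females the log2 ratio of Npy was above 0 under every alternative run. In males it was above 0 under all but 1. Some choices were set before the alternatives were run, though with earlier results of these data known. Of these, library totals gave 1.92 in females and 1.05 in males, and median-of-ratios scaling 1.62 and 1.17. The mean over cells of TPM gave 1.53 and 1.26, the mean over cells of CPM 1.45 and 1.22, and the median over cells 0.47 and 0.94. Adding the removed cells gave 1.57 and 1.09, and adding the contaminated cells 1.48 and 1.37. Keeping only cells with Lhx6 gave 2.26 in females (1.14 in males), and leaving out cells with microglial RNA gave 1.86 and 1.17. Leaving out 1 cell at a time gave 0.85 to 2.16 in females and 0.59 to 1.94 in males. Other choices were made after seeing the data: without the highest cell of each group the ratios were 1.36 and 1.37, with Neurod6 at 10 CPM or more 2.45 and 2.41, with Neurod6 under 10 CPM 0.88 and -1.48, and with the highest cell of each group then also left out 1.41 and 0.035. The cause of these shifts was not tested. Of the other genes named by genotype, the male ratios of Penk and Pdyn were -2.01 and -1.25 without their highest Mut male cell, also chosen after seeing the data.

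The share of cells with Npy was 100% in all 4 groups at 1 CPM, a limit that the lowest cell met with 11 reads. At 10 TPM it was 100% in WT females and Mut males, and at 100 CPM it was 63.2% in WT males. DESeq2 called 367 genes higher and 299 lower where edgeR called 0 and 0 (unadjusted p under 0.05: 273 and 302); other scalings, no filter, no sex term and each sum left out also gave 0 and 0 with edgeR. Of the 12 genes named as most or least like Npy, 6 stayed with Pearson's r, 7 with TPM and 5 with Lhx6 cells only. No paired analysis was possible because the cells carry no replicate numbers in the labels and each group is 1 sum. Without named animals, the spread between mice of a genotype is unknown.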
